A study of Homo sapiens with 6 samples.

Results

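The genes described here are 38 genes of glycolysis and of the response to low oxygen, out of 78650 genes in the deposited tables, measured by RNA sequencing in THP-1 cells. They were chosen by name, from lists of enzymes and of known targets of hypoxia-inducible factor (HIF), and matched by Ensembl identifier. By role they fall into 17 glycolytic enzymes, 4 transporters of glucose or lactate, 4 enzymes that set the flux through the pathway, and 13 genes of the HIF system or its other targets. All 38 were found, and 36 passed the filter on low counts. CA9, a membrane carbonic anhydrase, had 0 counts in all 6 libraries, and EGLN3, a HIF prolyl hydroxylase, had 1, 9 and 0 counts in the empty vector libraries and 2, 1 and 2 in the others.

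THP-1 is a human monocytic leukaemia cell line. Cells were stably transduced with an empty vector (EV, 3 libraries) or with a construct overexpressing PTX4 (PTX4-OE, 3 libraries), which encodes the soluble recognition protein pentraxin 4. Both groups were grown in the same medium, and no low-oxygen or drug treatment is named in the labels. The libraries carry replicate numbers 1, 2 and 3 in both conditions, and all 6 are listed in batch 1. The labels state no pairing, and libraries of the same number were taken as pairs from correlations of their values. The sources used here do not give the promoter that drove PTX4, or whether the 3 replicates of a condition came from separate transductions.

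Glycolysis splits glucose into pyruvate in the cytosol, and lactate dehydrogenase turns pyruvate into lactate so that the pathway can go on without oxygen. HIF1A is hydroxylated by the EGLN enzymes while oxygen is present and then degraded. When oxygen is scarce it accumulates, pairs with ARNT, binds DNA at short sites with a CGTG core, and raises the transcription of most glycolytic enzymes, of glucose transporters and of genes such as VEGFA and BNIP3. In monocytes and macrophages the same programme can also be raised by inflammatory signals at normal oxygen.

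Total expected counts, estimated reads per gene that need not be whole, ran from 29670641 to 37718207 per library. PTX4 had 0, 3 and 4 counts with EV and 24633, 14398 and 15782 counts with PTX4-OE, so every library matched its label. The mitochondrial share of counts was 2.79% for PTX4-OE replicate 1, and the other 5 libraries lay between 4.75% and 5.91%. Of 14 monocytic line markers the summed level was 3256 to 3428 TPM, a level scaled for gene length and summing to 1000000 per library, in every library, with 2 markers under 1 TPM, whereas 5 T cell markers were all at 0. Markers of B cells, erythroid cells, epithelium and fibroblasts, 5 genes each, summed to at most 5.2, 0.24, 2.07 and 0.28 TPM.

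Transcripts of the glycolytic pathway differed little between PTX4-OE and EV and more between libraries of different replicate number. The 17 enzymes summed to 8960, 7987 and 6421 TPM in EV replicates 1, 2 and 3 and to 9793, 7801 and 6712 TPM in PTX4-OE replicates 1, 2 and 3. The group means were 7789 ± 1281 and 8102 ± 1562 TPM (SD, n = 3 each). Bulk RNA cannot tell fewer cells with a transcript from less transcript per cell. The groups overlapped, and in both the library numbered 1 was the highest and that numbered 3 the lowest. Mitochondrially encoded mRNAs, which also enter the total of TPM, had 64570 TPM in PTX4-OE replicate 1, where the enzyme sum was highest, against 107000 to 131300 TPM elsewhere, and their part in the enzyme sum was not tested.

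The most abundant enzymes were GAPDH, which oxidises glyceraldehyde 3-phosphate, and ENO1, the main enolase. GAPDH (ENSG00000111640.15, chromosome 12, 6534512 to 6538374, plus strand, GRCh38) stood at 2503, 2325 and 2117 TPM in EV and at 2664, 2346 and 2095 TPM in PTX4-OE, replicates 1, 2 and 3 in that order here and below. ENO1 (ENSG00000074800.16, chromosome 1, 8861000 to 8879190, minus strand) was at 1455, 1292 and 959 TPM in EV and 1655, 1261 and 1034 TPM in PTX4-OE. Both genes were highest in the libraries numbered 1 and lowest in those numbered 3, and the ranges of the groups overlapped. ALDOA, the main aldolase of most tissues, followed at 1166, 1018 and 804 TPM in EV and 1288, 961 and 886 TPM in PTX4-OE. LDHB was at 894, 888 and 805 TPM in EV and 947, 848 and 781 TPM in PTX4-OE. These 4 genes held 66.9% to 73.0% of the summed enzyme TPM in each library.

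**Figure D1:**
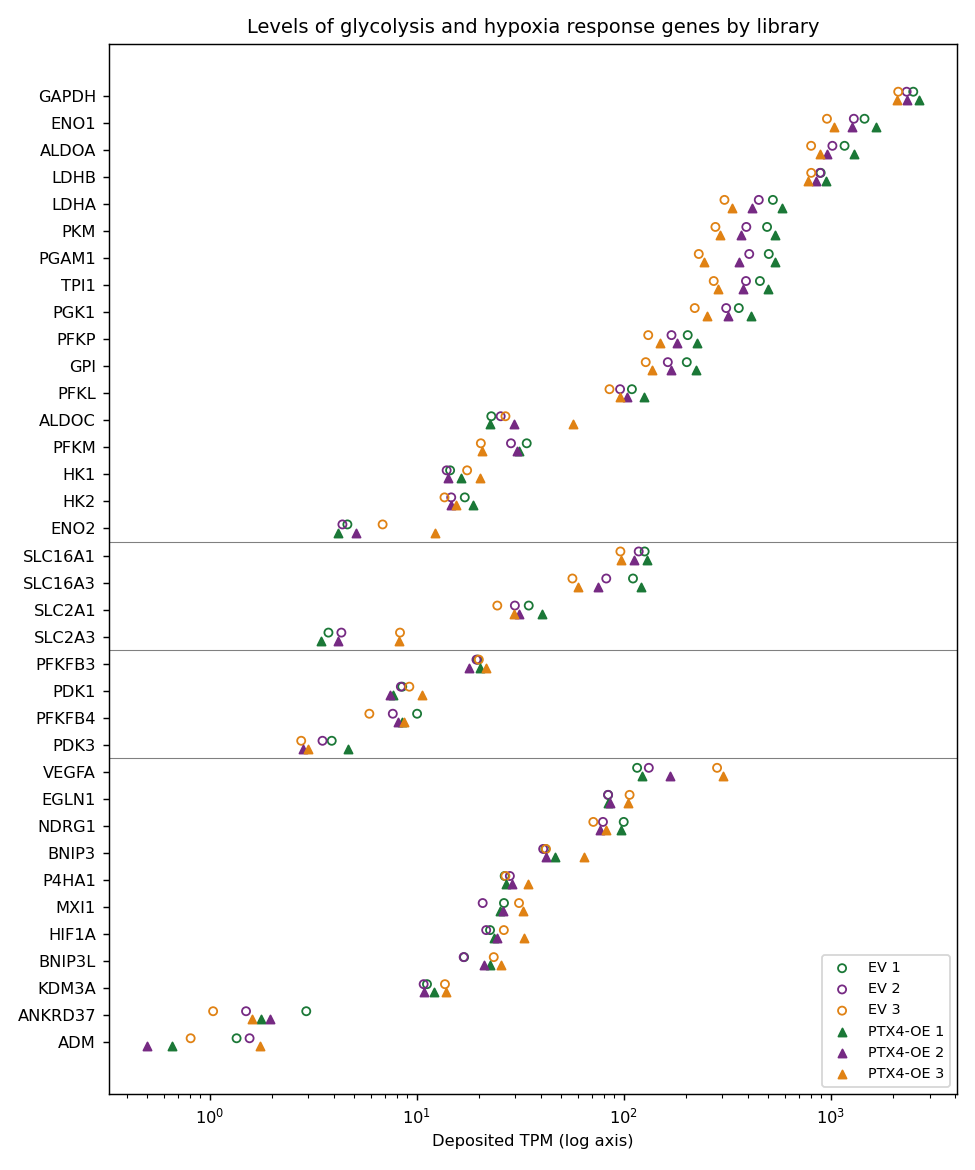
Deposited TPM (log axis) of the members in each library, grouped by role; open circles are EV, filled triangles PTX4-OE, and colours mark the replicate number. Within most rows the 2 libraries of a number lie close together and the 2 conditions overlap; CA9 and EGLN3 are not drawn.

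The comparison of PTX4-OE with EV asked which transcripts PTX4 overexpression changes, and 0 of the 36 tested members passed it in either direction. The test was edgeR's quasi-likelihood test on counts, with Benjamini-Hochberg adjustment over all 17624 genes tested and a call at an adjusted p under 0.05. Without blocks 0.00567% of all genes were called, and the smallest adjusted p of a member was 0.9999. With replicate number as a block 0.261% of all genes were called (0.0284% higher and 0.233% lower), and the smallest adjusted p of a member was 0.3316, that of ALDOC. DESeq2 and limma-voom likewise called 0 members, with and without blocks. At an unadjusted p under 0.05 there were 0 members without blocks, against 0.743% of all genes. With blocks there were 7, all higher in PTX4-OE, against 8.79% of all genes in either direction and 4.36% higher and 4.43% lower. DESeq2 with blocks put 6 members and limma-voom 10 members under that unadjusted limit.

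The estimates were small as well as uncalled. Without blocks the median log2 fold change of the 36 members was 0.033, against 0.008 over all genes tested. Of the members 25 lay above 0 and 11 below, against 9338 and 8286 of 17624 genes. The median was 0.060 for the glycolytic enzymes, -0.022 for the transporters, 0.007 for the flux enzymes and 0.056 for the HIF list. A change of over 2-fold, up or down, lay outside the 95% confidence interval of 31 of 36 members without blocks and of 35 with them, ADM being the exception. edgeR moderates variances across genes, so a gene's own 3 pairs can spread wider than its interval.

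Pairs of libraries with the same number did not move the members one way. The median difference of the 36 members, PTX4-OE minus EV in log2 of counts scaled for library size (CPM), was 0.077, -0.029 and 0.087 in pairs 1, 2 and 3. For the enzymes it was 0.115, -0.066 and 0.092, with 15 of 17 enzymes higher in pair 1 and 13 of 17 lower in pair 2. Of all 17624 genes tested, 9642 were higher in pair 1 and 8993 lower in pair 2. A count of 7 members was higher in all 3 pairs, against 16.4% of all genes, and 2 were lower in all 3, against 14.1%. Members whose 3 PTX4-OE libraries all lay on one side of the 3 EV libraries numbered 0 of 36, against 4.12% of all genes (2.08% with PTX4-OE higher and 2.04% lower).

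**Figure D2:**
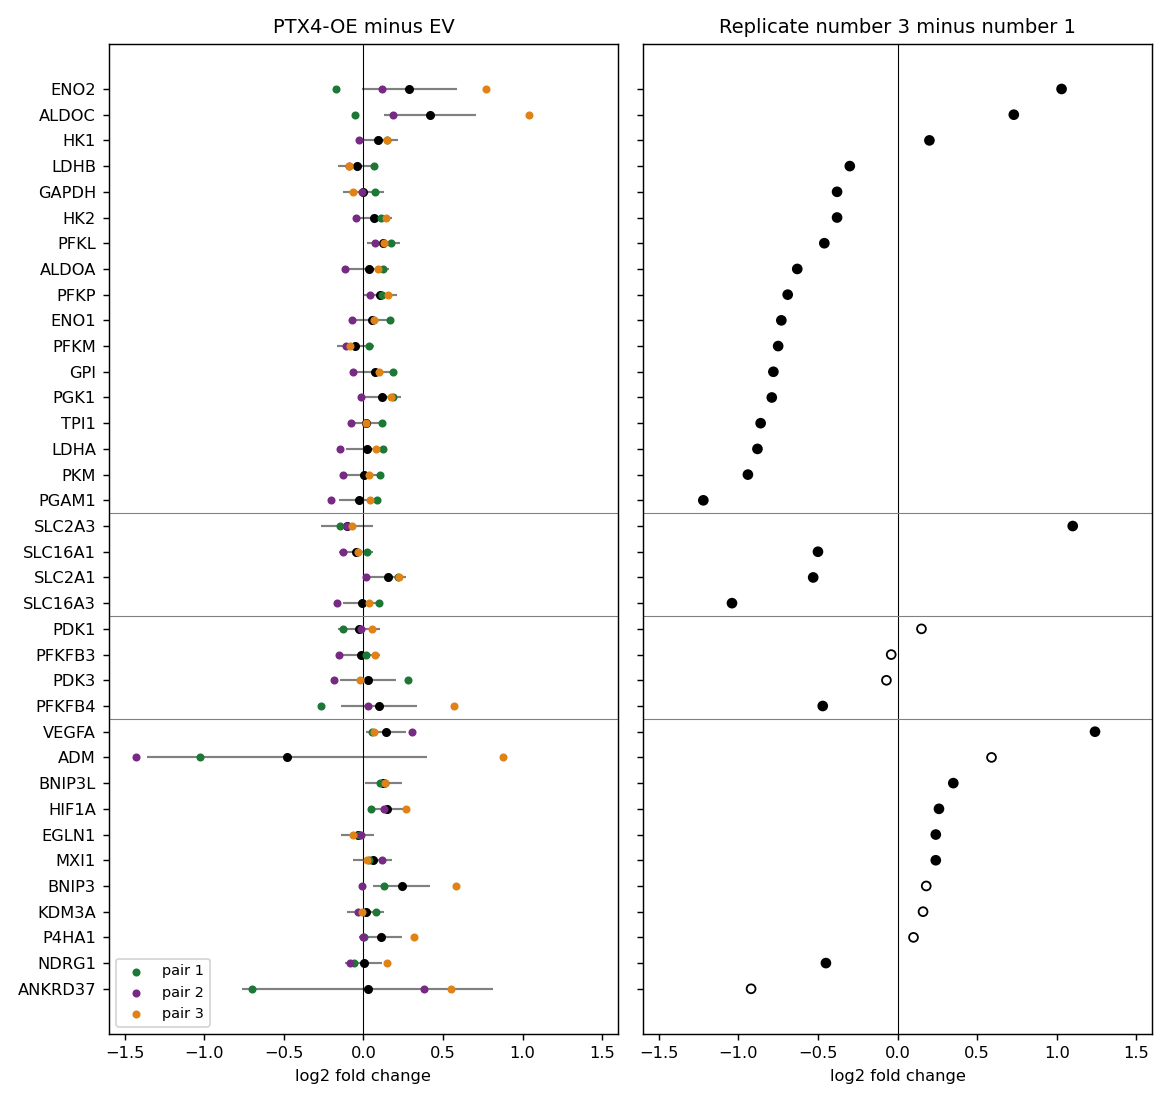
Log2 differences of each tested member: on the left PTX4-OE minus EV, with the estimate of the fit with blocks and its 95% confidence interval in black and the 3 pairs in colour; on the right the libraries numbered 3 minus those numbered 1, filled where the edgeR adjusted p is under 0.05. On the left most estimates lie near 0. ALDOC and ENO2 are spread to the right by pair 3, and ADM has the lowest estimate, -0.48, with pairs from -1.43 to 0.87. On the right most enzymes lie well below 0.

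ALDOC, an aldolase best known from brain, had the smallest p of the members in the fit with blocks and 1 library far above the rest. ALDOC (ENSG00000109107.14, chromosome 17, 28573115 to 28576948, minus strand) was at 22.9, 25.5 and 26.9 TPM in EV and 22.5, 29.6 and 56.8 TPM in PTX4-OE. PTX4-OE replicate 3 was therefore far above the other 5 libraries, which ran from 22.5 to 29.6 TPM. The log2 fold change was 0.48 (SE 0.30, edgeR adjusted p = 0.9999) without blocks and 0.42 (SE 0.14, edgeR adjusted p = 0.3316) with them. By pair the differences were -0.055, 0.19 and 1.04. It was called higher without pair 1 (0.64, edgeR adjusted p = 0.007793), and with blocks but no filter on low counts (0.42, edgeR adjusted p = 4.326e-07), and without pair 3 the log2 fold change was 0.055.

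ENO2, the enolase of neurons, had the same shape at a lower level. ENO2 (ENSG00000111674.9, chromosome 12, 6913745 to 6923698, plus strand) stood at 4.63, 4.38 and 6.85 TPM in EV and 4.19, 5.08 and 12.2 TPM in PTX4-OE. Its values were high in both libraries numbered 3, and in PTX4-OE replicate 3 above all others. The log2 fold change was 0.37 (SE 0.40) without blocks and 0.29 (SE 0.14, edgeR adjusted p = 0.587) with them. By pair the differences were -0.17, 0.12 and 0.77. In the fit without blocks, leaving out PTX4-OE replicate 3 but keeping EV replicate 3 gave -0.23.

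BNIP3, a mitochondrial outer membrane protein that marks mitochondria for autophagy, was also highest in PTX4-OE replicate 3. BNIP3 (ENSG00000176171.12, chromosome 10, 131967684 to 131981967, minus strand) was at 41.8, 40.8 and 42.1 TPM in EV and 46.7, 41.9 and 64.4 TPM in PTX4-OE. The EV libraries lay within a narrow range, and PTX4-OE replicate 2 lay inside it. With blocks the log2 fold change was 0.24 (SE 0.084, edgeR adjusted p = 0.3751), and without pair 3 it was 0.049. With no filter on low counts BNIP3 was called higher in that fit (0.25, edgeR adjusted p = 0.01162). Its relative BNIP3L stood at 17.0, 16.9 and 23.6 TPM in EV and 22.7, 21.1 and 25.7 TPM in PTX4-OE, with a log2 fold change of 0.13 (SE 0.055) with blocks. BNIP3L shares exonic bases with PNMA2 on the other strand, so some of its reads may belong to that gene.

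The other members under an unadjusted p of 0.05 with blocks were SLC2A1, HIF1A, PFKL and VEGFA, none of which passed after adjustment. SLC2A1, the glucose transporter GLUT1, was at 34.8, 29.8 and 24.5 TPM in EV and 40.1, 31.1 and 29.6 TPM in PTX4-OE, a log2 fold change of 0.15 (SE 0.054, edgeR adjusted p = 0.385 with blocks). HIF1A, the oxygen-regulated subunit of HIF, was at 22.6, 21.7 and 26.4 TPM in EV and 23.7, 24.3 and 32.8 TPM in PTX4-OE, also at 0.15 (SE 0.054). PFKL, the liver form of phosphofructokinase, stood at 109.6, 96.1 and 85.4 TPM in EV and 125.5, 104.0 and 96.2 TPM in PTX4-OE, at 0.13 (SE 0.048). All 3 were higher in each of the 3 pairs, while the ranges of the groups overlapped for each.

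VEGFA, the endothelial growth factor that is a standard read-out of HIF activity, differed between numbers far more than between constructs. VEGFA (ENSG00000112715.26, chromosome 6, 43770184 to 43786487, plus strand) was at 116.1, 132.2 and 282.5 TPM in EV and 122.8, 167.4 and 301.3 TPM in PTX4-OE. Both libraries numbered 3 were above 280 TPM and the other 4 below 168 TPM. The log2 fold change for the construct was 0.14 (SE 0.058, edgeR adjusted p = 0.4894) with blocks and 0.13 (SE 0.41) without.

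Promoter stretches with matches to the HIF core motifs are shown for ALDOC, BNIP3, LDHA and PGK1, the last being phosphoglycerate kinase, as examples of members described here that have matches. The window of PGAM1 held 0 matches, and VEGFA and SLC2A3 had no window in the table used. Windows from 250 bases before to 50 after RefSeq gene starts (GRCh38.p14) were searched on both strands for ACGTG and GCGTG, which read CACGT and CACGC on the other strand; CACGTG matches on both strands. Capitals mark the matches, the sequences run 5′ to 3′ on the strand of the gene, and all lie before the start. That start is the RefSeq start of the window. The ALDOC, BNIP3 and LDHA stretches also end before the annotated gene begins. ALDOC matches at -45 and -28 bases from the RefSeq start are therefore not printed. The PGK1 stretch lies inside the annotated PGK1 gene, which runs from 77910739 to 78129295 on chromosome X.
ALDOC, chr17:28576987-28577145, minus strand: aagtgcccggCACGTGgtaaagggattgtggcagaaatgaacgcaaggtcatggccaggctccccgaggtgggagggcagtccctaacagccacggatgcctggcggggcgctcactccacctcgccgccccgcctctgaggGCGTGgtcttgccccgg
BNIP3, chr10:131982011-131982078, minus strand: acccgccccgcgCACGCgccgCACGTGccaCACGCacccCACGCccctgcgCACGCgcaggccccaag
LDHA, chr11:18394366-18394506, plus strand: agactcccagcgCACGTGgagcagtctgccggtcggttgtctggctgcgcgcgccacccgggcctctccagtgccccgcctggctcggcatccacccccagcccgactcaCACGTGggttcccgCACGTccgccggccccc
PGK1, chrX:78104025-78104081, plus strand: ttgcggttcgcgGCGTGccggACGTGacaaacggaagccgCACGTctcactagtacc

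Windows were found for 33 of the 38 members, 63 windows in all since a gene can have several starts. Windows of the same gene can overlap, as those of KDM3A do, so the same site can be counted more than once. The shares below are of windows, not of genes. ACGTG occurred in 39.7% of them, against 21.4% of all 35116 windows of the same length, and GCGTG in 42.9% against 36.5%. A match to either motif was present in 68.3% of member windows and 48.4% of all. The member windows also had a higher median GC content, 69.0% against 58.7%, and the part of base composition in the motif shares was not tested. A match is a run of letters, not a bound site, and these RNA data hold no measure of HIF binding.

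The replicate number separated the members more clearly than the construct, and this contrast was chosen after the values had been seen. Each number holds 2 libraries, an EV and a PTX4-OE library, and the labels do not say what libraries of a number share. Between the libraries numbered 3 and those numbered 1, 28 of 36 members passed the edgeR test with construct as a term, 9 higher and 19 lower in number 3. Over all genes 54.6% passed (25.8% higher and 28.8% lower), so a difference between the numbers was common throughout the transcriptome. The estimate for the number was larger in size than that for the construct in 34 of 36 members, against 14891 of 17624 genes. Without PTX4-OE replicate 3, the count of members higher in number 3 was 6 and that of members lower was 19. Between numbers 2 and 1 there were 1 member higher, VEGFA, and 14 lower, against 8.4% and 12.8% of all genes.

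All 17 glycolytic enzymes passed this test, 14 lower and 3 higher in the libraries numbered 3, with a median log2 difference of -0.692 against 0.026 over all genes. PGAM1, phosphoglycerate mutase, had the lowest value among them: 502, 404 and 230.4 TPM in EV and 539, 360 and 244 TPM in PTX4-OE, a log2 difference of -1.22 (SE 0.074, edgeR adjusted p = 7.539e-09) between numbers 3 and 1. PKM, pyruvate kinase of most tissues, went from 492 and 538 TPM in the libraries numbered 1 to 277 and 293 TPM in those numbered 3, at -0.94 (SE 0.071). LDHA, which makes lactate from pyruvate, was at 525, 449 and 307 TPM in EV and 582, 417 and 334 TPM in PTX4-OE, at -0.88 (SE 0.074). PGK1, which makes ATP, was at 359.7, 313 and 220.3 TPM in EV and 414, 318 and 253 TPM in PTX4-OE, at -0.79 (SE 0.070). In each of these 4 genes number 2 lay between the others in both conditions.

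The remaining lower enzymes had log2 differences from -0.30 for LDHB, the lactate dehydrogenase subunit typical of heart, to -0.86 for TPI1, triosephosphate isomerase. In CPM, 14 of the 17 enzymes were highest in the library numbered 1 and lowest in that numbered 3 in both conditions. This order held for 18 of the 36 members, against 24.6% of all genes. In CPM, PTX4-OE replicate 1 was also the highest of all 6 libraries for 14 of the enzymes and for 19 of the 36 members, against 29.4% of all genes. GAPDH, often used as a reference gene, was lower in number 3 by 0.38 on the log2 scale (SE 0.074, edgeR adjusted p = 4.785e-04). The 3 enzymes that were higher were HK1 at 0.20 (SE 0.070), ALDOC at 0.73 (SE 0.17) and ENO2 at 1.03 (SE 0.17). Without PTX4-OE replicate 3 only ENO2 was called higher, 1 enzyme, and 14 enzymes were called lower. ALDOC also lost this call without PTX4-OE replicate 1, and HK1 without EV replicate 1 or EV replicate 3.

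**Figure D3:**
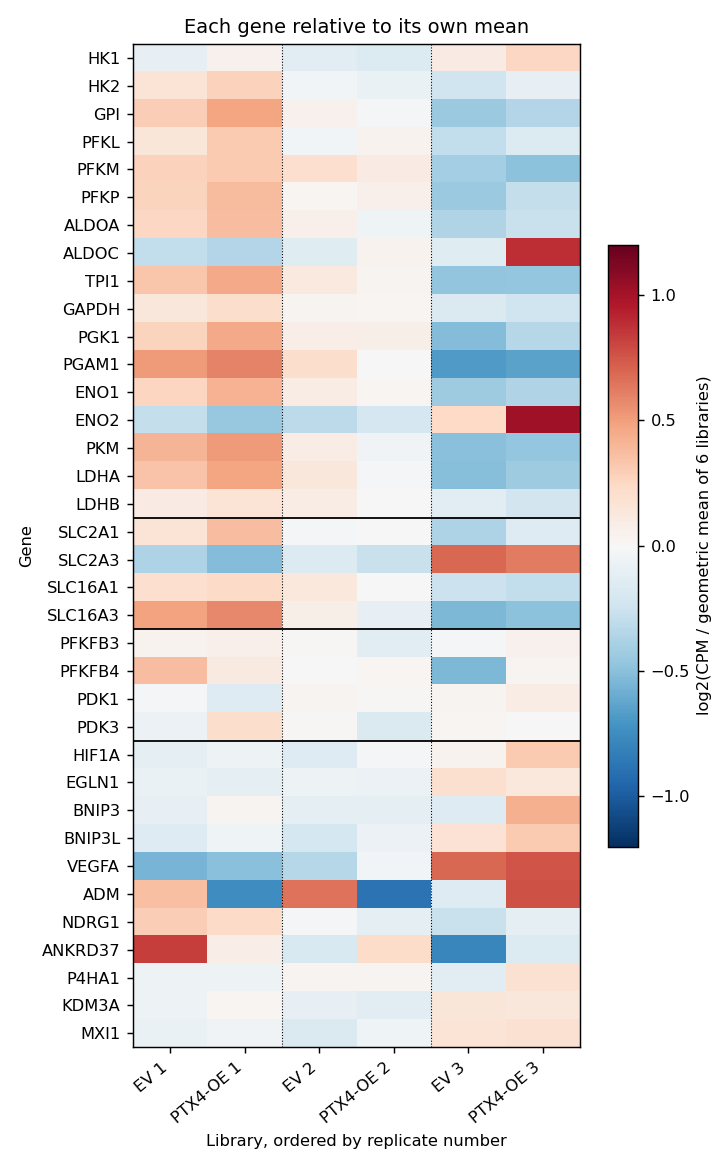
Log2 of CPM over the geometric mean of the 6 libraries for each tested member, with columns ordered by replicate number and EV and PTX4-OE side by side; the colour scale runs from -1.2 to 1.2. Most enzymes are above their mean in both libraries numbered 1 and below it in both numbered 3, whereas VEGFA, SLC2A3 and ENO2 have the opposite order.

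Transporters were divided. SLC16A1 (MCT1), a lactate carrier, was at 126.2, 118.2 and 96.4 TPM in EV and 130.1, 111.6 and 97.0 TPM in PTX4-OE. SLC16A3 (MCT4), the lactate exporter known as a HIF target, was at 110.9, 82.4 and 56.5 TPM in EV and 121.8, 74.9 and 60.0 TPM in PTX4-OE. SLC16A1, SLC16A3 and SLC2A1 were lower in number 3, by 0.50, 1.04 and 0.53 on the log2 scale. SLC16A3 shares exonic bases with CSNK1D on the other strand.

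SLC2A3 (GLUT3), a glucose transporter of high affinity, was higher in the libraries numbered 3. It stood at 3.75, 4.33 and 8.31 TPM in EV and 3.46, 4.18 and 8.21 TPM in PTX4-OE, a log2 difference between numbers 3 and 1 of 1.10 (SE 0.093, edgeR adjusted p = 1.322e-07). The construct made little difference to it, with a log2 fold change of -0.10 (SE 0.077) with blocks. SLC2A3 is nearly identical in sequence to SLC2A14 and had fractional counts in all 6 libraries, so its level is uncertain.

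Among flux enzymes 1 of 4 passed the test between the numbers. PFKFB3, which makes the activator of phosphofructokinase, was at 19.7, 19.5 and 19.97 TPM in EV and 20.3, 18.0 and 21.6 TPM in PTX4-OE, and its log2 difference between numbers 3 and 1 was -0.040 (SE 0.068, edgeR adjusted p = 0.641). PDK1, the kinase that switches off pyruvate dehydrogenase, was at 8.52, 8.39 and 9.22 TPM in EV and 7.72, 7.45 and 10.6 TPM in PTX4-OE, with 0.15 (SE 0.074, edgeR adjusted p = 0.09178). PDK3, a further kinase of that enzyme, stood at 3.89, 3.51 and 2.77 TPM in EV and 4.64, 2.83 and 2.98 TPM in PTX4-OE.

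PFKFB4, the relative of PFKFB3, was that gene, and its conditions differed in pattern. It was at 10.1, 7.67 and 5.91 TPM in EV, where number 1 was highest, and at 8.53, 8.13 and 8.73 TPM in PTX4-OE, where the libraries were nearly level. Its log2 difference between numbers 3 and 1 was -0.47 (SE 0.14, edgeR adjusted p = 0.008038). The call was lost without EV replicate 1 or without EV replicate 3.

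Of 11 tested genes of the HIF list, 5 were higher in the libraries numbered 3 (VEGFA, BNIP3L, HIF1A, EGLN1 and MXI1), NDRG1 was lower, and 5 did not pass. The 6 that passed are a share near that of all genes, of which 54.6% passed, 25.8% higher and 28.8% lower. The median log2 difference of the 11 tested genes was 0.236. The summed level of the list was 450.2, 438.1 and 626.2 TPM in EV and 464.2, 486.2 and 695.4 TPM in PTX4-OE. VEGFA made up most of the gap, with a log2 difference of 1.24 (SE 0.072, edgeR adjusted p = 6.055e-09). HIF1A was at 0.26 (SE 0.066), and without PTX4-OE replicate 3 it was not called.

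EGLN1, the main oxygen sensor that marks HIF1A for degradation, was at 84.1, 84.1 and 106.8 TPM in EV and 83.8, 85.9 and 104.9 TPM in PTX4-OE. Both libraries numbered 3 were above the other 4, at a log2 difference of 0.24 (SE 0.059, edgeR adjusted p = 0.002325). MXI1, which represses MYC targets, was at 0.24 (SE 0.070) and BNIP3L at 0.35 (SE 0.067). EGLN1 and MXI1 lost the call without EV replicate 3. NDRG1, a stress-response protein, was lower at -0.45 (SE 0.066). PTX4-OE replicate 3 had the highest CPM of the 6 libraries for 7 of the 11 tested genes of this list and for 11 of all 36 members, against 21.4% of all genes.

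The members that did not pass included P4HA1, a collagen prolyl hydroxylase, at 26.6, 28.2 and 26.8 TPM in EV and 27.1, 29.0 and 34.4 TPM in PTX4-OE. KDM3A, a histone demethylase, had a log2 difference of 0.16 (SE 0.067) between the numbers. ADM, the vasodilator peptide adrenomedullin, had a construct estimate of -0.39 (SE 0.51) without blocks and -0.48 (SE 0.41) with them, on only 15 to 59 counts per library. It was at 1.35, 1.56 and 0.81 TPM in EV and 0.66, 0.50 and 1.76 TPM in PTX4-OE, and its pairs ran from -1.43 to 0.87. ANKRD37 was similarly low, at 1.04 to 2.93 TPM, and overlaps UFSP2, which has far more counts.

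For several steps the isozyme make-up also differed between the numbers, with overlapping groups. The share of HK2 in the summed TPM of hexokinases HK1 and HK2 was 54.1%, 51.3% and 43.7% in EV and 53.6%, 50.7% and 43.6% in PTX4-OE. HK1 itself was at 14.5, 14.0 and 17.5 TPM in EV and 16.3, 14.2 and 20.1 TPM in PTX4-OE, and HK2 at 17.1, 14.7 and 13.6 against 18.8, 14.6 and 15.6 TPM. LDHA took 37.0%, 33.6% and 27.6% of the lactate dehydrogenase transcripts in EV and 38.1%, 33.0% and 30.0% in PTX4-OE, with LDHB holding the rest. For glucose transporters the share of SLC2A3 beside SLC2A1 was 9.73%, 12.7% and 25.3% in EV and 7.94%, 11.9% and 21.7% in PTX4-OE. In these 3 sets the libraries numbered 1 lay on one side of those numbered 3 in both conditions.

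Phosphofructokinase was mostly of the platelet form, PFKP, with a share of 57.3% ± 1.69 in EV and 57.5% ± 1.33 in PTX4-OE (SD, n = 3 each). PFKL held 33.4% ± 2.33 and 34.0% ± 1.74 and the muscle form PFKM 9.36% ± 0.653 and 8.56% ± 1.06. PFKP itself was at 203.8, 170.2 and 131.4 TPM in EV and 224.8, 180.2 and 150.5 TPM in PTX4-OE. PFKM was at 34.0, 28.6 and 20.4 TPM in EV and 31.3, 30.7 and 20.7 TPM in PTX4-OE. It shares exonic bases with SENP1 on the other strand. ALDOC rose in share of the aldolases from 1.72% in PTX4-OE replicate 1 to 6.03% in PTX4-OE replicate 3, with 1.93% to 3.23% in EV. ENO2 was at most 1.17% of the enolases. All 13 shares computed overlapped between the groups, and with 3 libraries a group an exact permutation test cannot go below p = 0.10.

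**Figure D4:**
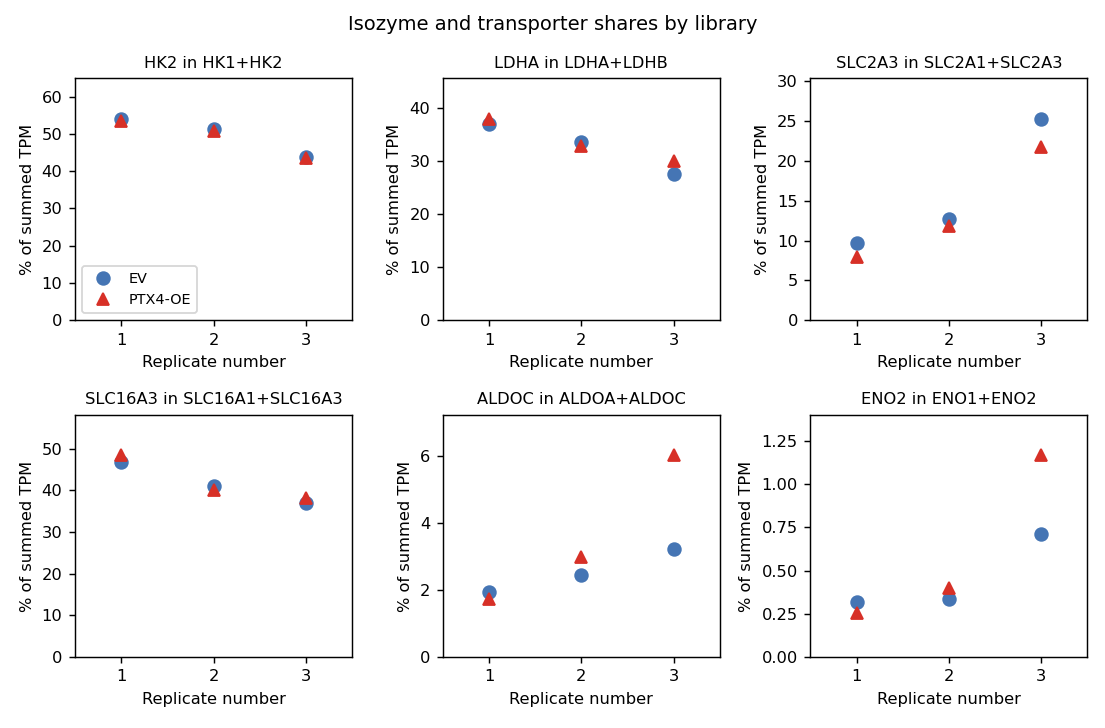
Share of summed TPM held by an isozyme in 6 isozyme sets, plotted by replicate number. Blue circles are EV and red triangles PTX4-OE. The HK2 and LDHA shares are lowest in the libraries numbered 3 and the SLC2A3, ALDOC and ENO2 shares highest, with the groups overlapping in every panel.

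Neighbouring genes of the same pathways were described from 3 further lists, also chosen with results of these data known. Of 30 other glycolysis and glucose genes 22 were tested, of 7 pentose phosphate genes 7, and of 36 other hypoxia genes 32, and 0 of each were called for the construct in either fit. At an unadjusted p under 0.05 without blocks 0 of each were below it. With blocks, counts at that limit were 0, then PGD alone, which was lower, and then 4 higher and 2 lower, against 4.36% higher and 4.43% lower over all genes. The median log2 fold changes were -0.006, 0.001 and 0.021 without blocks.

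PGD, which makes NADPH in the pentose phosphate pathway, was at 179.0, 169.7 and 145.3 TPM in EV and 170.2, 148.6 and 146.9 TPM in PTX4-OE, a log2 fold change of -0.12 (SE 0.052, edgeR adjusted p = 0.5363 with blocks). TKT, transketolase, had -0.037 (SE 0.055) with blocks. Among hypoxia genes PLOD2, a lysyl hydroxylase of collagen, was at 1.92, 1.17 and 1.13 TPM in EV and 2.17, 1.59 and 2.03 TPM in PTX4-OE, with 0.46 (SE 0.15, edgeR adjusted p = 0.3369 with blocks). TMEM45A had 0.30 (SE 0.16) with blocks. The other hypoxia genes under that unadjusted limit were DDIT4, VLDLR and KDM4B, at 0.16, 0.14 and 0.12, and CXCR4 and WSB1, at -0.20 and -0.17, named after their values were seen. HK3, a hexokinase of blood cells, was lower in all 3 pairs, on 19 to 35 counts per library.

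The same lists were also set against the replicate number. Of the 22 other glycolysis genes 10 were lower and 3 higher in the libraries numbered 3, and of the 7 pentose phosphate genes 5 were lower and 0 higher. The 3 higher were ENO3, the muscle enolase, at 1.45, SLC2A14 at 0.50 and PGM1 at 0.19. The 5 lower included TALDO1, transaldolase, at -0.80, and all of these genes were chosen after their values were seen. ENO3 shares exonic bases with PFN1 on the other strand, which has far more counts, so some of its reads may belong to PFN1. SLC2A14 had fractional counts in all 6 libraries, so its level is uncertain. Of the 32 other hypoxia genes 11 were lower and 9 higher. Over all genes 28.8% were lower and 25.8% higher.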

How the data were processed

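RNA with poly(A) tails from 6 THP-1 libraries was sequenced as read pairs, per the labels' protocols. The authors deposited expected counts without normalization, TPM scaled for gene length to 1000000 per library, and FPKM scaled for length and depth. Per the submitters' processing notes they used FastQC 0.11.5, STAR and featureCounts on GRCh38. The sources used here give no settings, strandedness or annotation release. Reads of antisense or overlapping genes therefore cannot be told apart. Of the deposited counts 7.9% are not whole. Such fractions can come from reads shared between similar genes, and ALDOA, GAPDH, PGAM1, EGLN1, NDRG1, PDK1, SLC2A1 and SLC2A3 had them in all 6 libraries.

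The members and lists were chosen with earlier results of these data known. Of 78686 rows, 36 pseudoautosomal X and Y pairs were summed, and names were matched by Ensembl identifier. Coordinates came from GENCODE 44. Counts were rounded, filtered with filterByExpr, scaled by TMM and compared by the quasi-likelihood test of edgeR 4.0.16 (R 4.3.3). Alternatives used DESeq2 1.42.0 and limma 3.58.1, other scaling factors, no filter, log2(TPM + 1) and log2(TPM + 0.1), no mitochondrial genes, and each library or pair left out. CPM carries the TMM factors. Standard errors are the size of the log2 fold change over the square root of F. Isozyme shares and sums use the deposited TPM, with FPKM as the alternative. Scripts were tested on simulated data. P-values measure only the spread between these libraries.

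The main design had no block. Deviations from the group mean correlated between the libraries of number 1 at 0.632, of number 2 at 0.130 and of number 3 at 0.699, each above the limit of 0.1, and between unlike numbers at -0.643 to 0.117. Number 2 is close to the limit, and an unlike pair, EV replicate 2 with PTX4-OE replicate 1, also lies above it at 0.117. The limit therefore does not set the pair of number 2 apart from that unlike pair. Since all 3 same-number correlations were above the limit, the numbers, which come from the labels, were taken to pair the libraries. Blocks lowered the biological coefficient of variation from 0.217 to 0.055. Values were given for every library of members that were among the 2 most abundant of a role list, among the 10 of largest fold change without blocks or the 10 of smallest p with blocks, or that belong to an isozyme set. Of the neighbouring lists the 2 genes of largest fold change with 1 sign in all pairs were named, except a gene that is not reported here. The other members described were chosen after their values were seen. Promoter sequences came from RefSeq.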

Additional observations from a re-analysis of the deposited data

How the results depend on the processing

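With no filter on low counts and the replicate block, 2 members were called higher, ALDOC (0.423, edgeR adjusted p = 4.326e-07) and BNIP3 (0.247, edgeR adjusted p = 0.01162). The other 16 of 17 alternatives with all libraries called 0. Leaving out a library or a pair gave 0 to 1 members called higher (ALDOC, without the pair of replicate 1) and 0 to 1 of the other hypoxia genes called lower (WSB1, without the pair of replicate 3). ALDOC adjusted p values ran from 4.326e-07 to 1.0 over its alternatives. The replicate block changed no other call of a member. Without each EV library the median log2 fold change ran from -0.052 to 0.153 for all members, -0.099 to 0.197 for enzymes, -0.078 to 0.144 for transporters, -0.024 to 0.012 for flux enzymes and -0.029 to 0.092 for the HIF list. Without each PTX4-OE library these were -0.054 to 0.081, -0.118 to 0.207, -0.085 to 0.14, -0.011 to 0.063 and -0.017 to 0.102. Without each pair, in fits with the replicate block, they were -0.001 to 0.088, 0.0 to 0.116, -0.071 to 0.033, -0.081 to 0.088 and 0.013 to 0.139. Over 26 alternatives 31 of 36 members changed sign at least once, and PFKL, ALDOC, HIF1A, BNIP3 and ADM did not.

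Between numbers 3 and 1, upper quartile scaling moved the median of all genes to 0.18 and the absence of a filter moved it to 0.12, against 0.03. Upper quartile scaling gave 8 genes of the HIF list higher, and 1 flux enzyme higher and 0 lower. Under every scaling 14 enzymes were lower. With mitochondrial genes left out 1 flux enzyme was higher. With each library left out, enzymes called higher ran from 1 to 3, flux enzymes from 0 to 1 higher and 0 to 1 lower, and genes of the HIF list from 4 to 6 higher and 1 to 2 lower. The difference in isozyme share, PTX4-OE minus EV in percentage points, then ran from -3.398 to 2.424 for HK2, -1.648 to 3.065 for LDHA, -6.01 to 2.63 for SLC2A3, -2.421 to 3.219 for SLC16A3, -0.4163 to 1.901 for PFKL, -0.7197 to 0.9186 for PFKP and -0.1279 to 0.3293 for ENO2. The cause of these shifts was not tested. Counts of 15 to 59 for ADM and 13.36 to 36.79 for ANKRD37 limit both genes.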
